A study of Mus musculus with 24 samples.

Results

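Complement is a set of plasma and cell-surface proteins that tags targets and calls in leukocytes. The genes described here are C1qa, C1qb, C1qc, Cfb, C3ar1 and C5ar1, taken as every array probe set that the annotation assigns to 1 of these genes alone. They account for 6 of 18193 genes and 11 of 34945 single-gene probe sets: 3 each for C1qb and C3ar1, 2 for C5ar1, and 1 each for C1qa, C1qc and Cfb. A 7th gene, C3, had 0 single-gene probe sets in the annotation used and is not analysed here. After treatment with the DNA-damaging drug Adriamycin, C3ar1 was higher, by 2.06 to 2.37 on the log2 scale over its 3 probe sets, and C5ar1 was higher on 1 of its 2 probe sets. The C1q genes and Cfb did not pass the test over all lymphomas, and their values were high in a few lymphomas only.

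The study profiled 12 mouse B-cell lymphomas, each on 1 array after Adriamycin (ADR, the anthracycline doxorubicin, 0.05 µg/ml for 5 days in culture) and on 1 array untreated, 24 arrays in all. The comparison asks how expression with the drug differs from that of the matched lymphoma without it, in a model chosen because its treated cells become senescent, that is, stop dividing for good. Cells of both groups came from lymph nodes of Eμ-Myc transgenic mice, in which the Myc oncogene is expressed in the B-cell lineage. Both groups also carried a retroviral Bcl2 gene (MSCVpuro vector), which protects cells from apoptosis, had been selected with puromycin, and were kept on a feeder layer of NIH 3T3 fibroblasts that had received gamma irradiation. The age of the mice was not given, nor how lymphoma numbers map to animals, so p-values measure the spread between lymphomas. RNA was taken from the culture as a whole, so a transcript may come from lymphoma cells, from feeder fibroblasts or from other cells of the lymph node, and a change in the number of cells of a type and a change in RNA per cell cannot be told apart.

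Complement starts along 3 routes. In the classical route the recognition molecule C1q, built of the chains A, B and C encoded by C1qa, C1qb and C1qc, binds antibody complexes or dying cells and carries the proteases C1r and C1s. In the alternative route factor B, encoded by Cfb, supplies the protease of the C3 convertase, which properdin stabilises. Cleavage of C3 and C5 releases the fragments C3a and C5a, which act on the G protein-coupled receptors encoded by C3ar1 and C5ar1. Macrophages are a main source of C1q, both receptors are found on myeloid cells, and fibroblasts can make C1r, C1s and factor B.

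C1qb and C1qc lie near each other on chromosome 4 and their values were high in the same lymphomas, and C3ar1 was the member with the largest change, so the promoters of these 3 genes are shown (RefSeq, build GRCm38.p6; 250 bases before to 50 after the gene start, 5′ to 3′ on the minus strand, on which all 3 are encoded). RefSeq entries were matched for 4 of the 6 genes. The windows are chr4:136886151-136886450 for C1qb, chr4:136892865-136893164 for C1qc and chr6:122856108-122856407 for C3ar1. Capitals mark matches, on either strand, to 4 patterns: the core GAGGAA of PU.1, a myeloid and B-cell transcription factor, the NF-kB pattern of GGG, any 5 bases and CC, the interferon response pattern of GAAA, any 2 bases and GAAA, and the AP-1 pattern TGANTCA.
C1qb: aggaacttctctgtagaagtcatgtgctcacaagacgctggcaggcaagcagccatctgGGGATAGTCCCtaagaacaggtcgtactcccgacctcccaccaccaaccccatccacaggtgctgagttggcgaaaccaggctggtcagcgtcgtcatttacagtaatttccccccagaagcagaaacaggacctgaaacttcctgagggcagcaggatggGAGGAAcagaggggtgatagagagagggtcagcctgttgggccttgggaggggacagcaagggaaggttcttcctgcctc
C1qc: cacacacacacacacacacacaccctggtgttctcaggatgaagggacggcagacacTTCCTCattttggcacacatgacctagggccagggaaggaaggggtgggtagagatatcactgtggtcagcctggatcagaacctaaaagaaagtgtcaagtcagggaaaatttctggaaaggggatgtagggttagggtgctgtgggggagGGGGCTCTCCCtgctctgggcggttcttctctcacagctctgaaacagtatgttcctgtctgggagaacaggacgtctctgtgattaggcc
C3ar1: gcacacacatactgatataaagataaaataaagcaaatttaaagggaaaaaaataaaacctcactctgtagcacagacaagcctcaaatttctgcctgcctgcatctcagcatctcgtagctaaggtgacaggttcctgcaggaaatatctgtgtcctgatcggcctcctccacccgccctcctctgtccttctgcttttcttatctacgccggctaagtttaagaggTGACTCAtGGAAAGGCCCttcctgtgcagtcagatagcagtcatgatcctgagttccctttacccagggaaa
Counted from the gene start, C1qb held the PU.1 core at -30 and 2 overlapping NF-kB matches, 1 on each strand, at -191 and -190. C1qc held the PU.1 core on the reverse strand at -193 and overlapping NF-kB matches at -41 and -40. C3ar1 held the AP-1 pattern at -22 and an NF-kB match on the reverse strand at -14. The C5ar1 window, chr7:16259289-16259588, held none of the 4 patterns, and no window held the interferon pattern. Among 32851 promoter windows of the same length, 28.28% held the PU.1 core, 50.79% the NF-kB pattern, 7.808% the AP-1 pattern and 3.443% the interferon pattern. A match describes these letters and is not evidence of binding.

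Values are log2 expression as the authors deposited them, and a change is ADR minus untreated within a lymphoma. A probe set was called at an adjusted p under 0.05 in limma's paired fit, with Benjamini-Hochberg adjustment over all 34945 probe sets. Array medians lay between 4.38 and 4.47, and levels at or below 4.47 lie near the floor of the measurement, where changes are understated and no fold is given. Correlations between arrays lay between 0.908 and 0.992. The B-cell label was checked with 10 measured B-cell markers, of which 0 lay near the floor in both groups: their mean was 7.59 to 10.15 with ADR and 8.94 to 9.70 untreated, and 4 were lower with ADR. In all 4 member probe sets were called higher and 0 lower, against a background of 11.3% of all probe sets called higher and 12.5% called lower (23.8% in either direction). The 11 mean changes were all positive, with a median of 0.71, beside a median of -0.013 over all probe sets. These are probe sets of 6 genes read on the same arrays, 5 of them of C1q. Over the lymphomas the median change was -0.088 for C1qa and positive for every other member probe set, at 0.068 for C1qc. ADR and untreated levels overlapped for every member probe set. How often they overlapped over all probe sets was not counted, so the overlap says nothing particular about these genes. Taken by gene, through the probe set with the highest mean, 1 of 6 members was called higher, beside 13.4% of all genes (25.9% in either direction), and 0 of 6 were higher in every lymphoma, beside 3.02% of all genes.

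C1qb, the B chain of C1q, was near the floor in most arrays and high in a few (probe set 1417063_at). With ADR its lowest, median and highest levels were 3.49, 4.23 and 10.83, and untreated they were 3.36, 3.69 and 7.26. The highest level was that of lymphoma 2581 with ADR, 10.83, against 4.57 untreated, a change of 6.26. Lymphoma 3802 followed with 8.66 with ADR and 3.61 untreated, a change of 5.05. Lymphoma 5560 had 6.53 with ADR and 4.79 untreated, a change of 1.74. Lymphoma 7050 went the other way, with 4.51 with ADR and 7.26 untreated, a change of -2.74. In the other 8 lymphomas levels lay between 3.36 and 4.47 in both groups, and changes lay between -0.57 and 0.80. Over the 12 lymphomas the mean was 5.14 ± 2.35 with ADR and 4.19 ± 1.06 untreated (SD, n = 12), a change of 0.95 (SE 0.63, adjusted p = 0.324) that was smaller than the spread between lymphomas. The change was positive in 9 of 12 lymphomas.

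Both further C1qb probe sets, whose names mark them as open to cross-hybridisation, gave changes of 0.34 (adjusted p = 0.465) and 0.78 (adjusted p = 0.354). Their changes followed those of the other probe set over the 12 lymphomas with r between 0.911 and 0.984, a description of probe sets read on the same arrays. C1qc, the C chain, showed the same lymphomas at the top. With ADR it ranged from 3.10 through a median of 3.74 to 10.01, and untreated from 3.31 through 3.64 to 5.39. Lymphoma 2581 had 10.01 with ADR and 4.44 untreated, lymphoma 3802 had 7.03 with ADR and 3.64 untreated, and lymphoma 5560 had 5.45 with ADR and 4.24 untreated. Lymphoma 7050 again had less with ADR, 3.87 against 5.39 untreated. The mean change was 0.71 (SE 0.50, adjusted p = 0.352), positive in 6 of 12 lymphomas.

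C1qa, the A chain, has a single probe set and was near the floor in most arrays. It reached 6.40 with ADR and 3.65 untreated in lymphoma 2581 and 4.94 with ADR and 3.72 untreated in lymphoma 3802, and no other array with ADR was above 4.47. Lymphoma 7050 again had less with ADR, 3.66 against 4.49 untreated, the lowest C1qa change (-0.82). The C1qa mean was 3.98 ± 0.86 with ADR and 3.75 ± 0.26 untreated (SD, n = 12), a change of 0.22 (SE 0.25, adjusted p = 0.582) that was positive in 4 of 12 lymphomas and negative in 8. Without lymphomas 2581 and 3802, a setting chosen after seeing the data, the average change was -0.13 for C1qa and -0.040 for C1qc, against 0.22 and 0.71 with them, so that both signs turned. For C1qb on 1417063_at it was 0.0081 without them, against 0.95 with them. Of the 5 C1q probe sets 0 were called with these lymphomas and 0 without them, when 20.9% of all probe sets were called in either direction.

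Cfb, factor B of the alternative route, was above the floor with ADR in 3 lymphomas. Its lowest, median and highest levels were 3.54, 3.95 and 6.09 with ADR and 3.32, 3.92 and 4.56 untreated. Lymphoma 2581 had 6.09 with ADR and 3.93 untreated, lymphoma 3769 had 5.81 with ADR and 4.02 untreated, and lymphoma 5560 had 5.50 with ADR and 4.56 untreated. The other 9 changes were at most 0.47. The mean was 4.39 ± 0.90 with ADR and 3.86 ± 0.34 untreated (SD, n = 12), a change of 0.53 (SE 0.20) that did not pass the test after adjustment (adjusted p = 0.0677; unadjusted p = 0.018). It was positive in 9 of 12 lymphomas. Lymphomas 2581 and 5560 were high with ADR for both C1qb and Cfb, while lymphoma 3769, high for Cfb, had 3.49 for C1qb with ADR and 4.05 untreated.

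**Figure D1:**
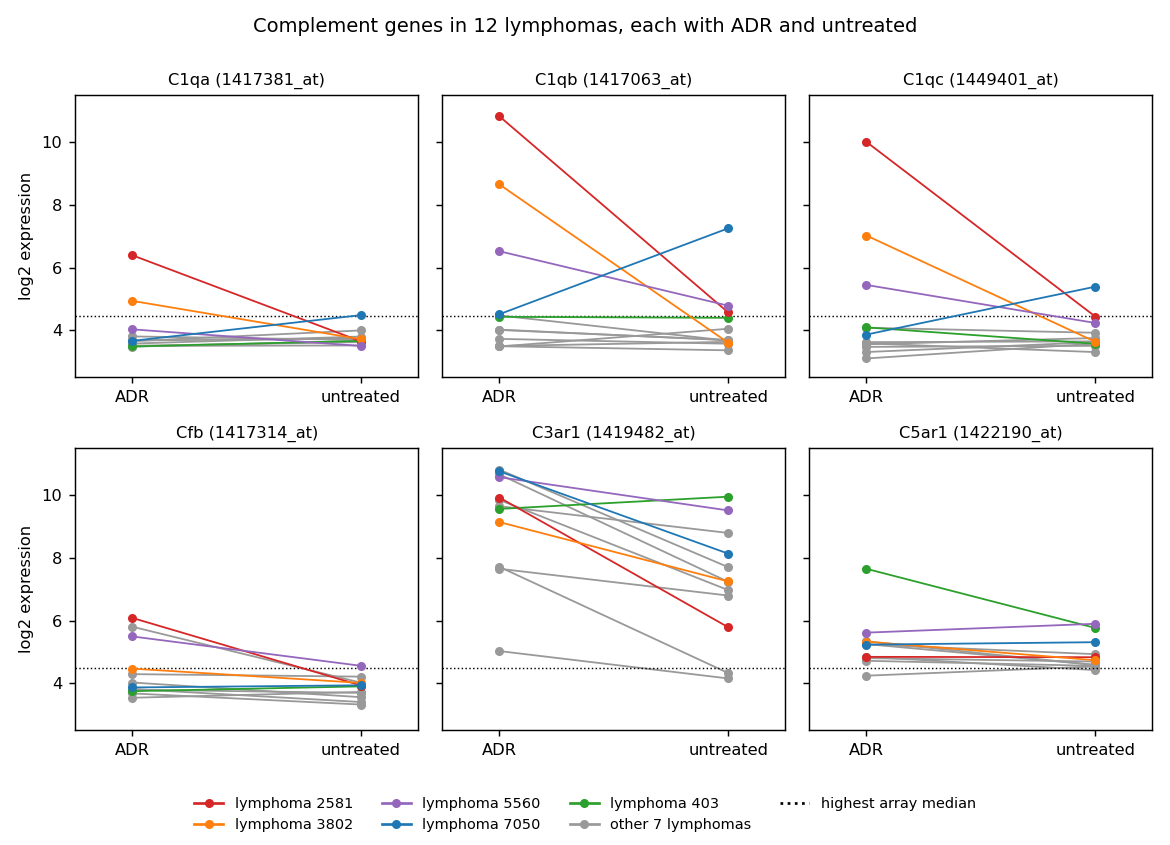
Log2 expression (vertical axis) of the 6 complement genes on their probe set with the highest mean, with ADR and untreated, in 12 lymphomas; each line joins the arrays of 1 lymphoma and the dotted line is the highest array median, 4.47. C1qa, C1qb and C1qc were high with ADR in lymphomas 2581 and 3802, and lower with ADR in lymphoma 7050, where C1qa had 4.49 untreated. C3ar1 was higher with ADR in 11 of 12 lymphomas.

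C3ar1, the receptor of the C3 fragment C3a, was the member with the largest change. On probe set 1419482_at its lowest, median and highest levels were 5.03, 9.75 and 10.82 with ADR and 4.16, 7.25 and 9.96 untreated. The groups overlapped, and the lymphomas differed widely within each group. Lymphomas 1570 and 1467 were low untreated, at 4.16 and 4.33, with 5.03 and 7.72 with ADR. Lymphoma 403 was highest untreated, at 9.96, and had 9.57 with ADR, the single negative change of this probe set (-0.39). The largest change was 4.14 in lymphoma 2581, with 9.93 with ADR and 5.79 untreated. The mean was 9.28 ± 1.71 with ADR and 7.22 ± 1.82 untreated (SD, n = 12), which is 4.17-fold higher (log2 change 2.06, SE 0.36, adjusted p = 0.00111, higher in 11 of 12).

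The 2 other C3ar1 probe sets were higher with ADR in 12 of 12 lymphomas, which held for 2.44% of all probe sets. That count includes lymphoma 1570, near the floor in both groups. It had 4.28 with ADR and 3.28 untreated on 1419483_at, and 3.95 and 2.62 on 1442082_at. Lymphoma 1467 was near the floor untreated, at 3.93 and 3.03. Probe set 1419483_at averaged 9.11 ± 1.89 with ADR and 6.84 ± 1.95 untreated, 4.80-fold higher (log2 change 2.26, SE 0.35, adjusted p = 0.000482). On 1442082_at the mean was 8.98 ± 1.92 with ADR and 6.61 ± 2.23 untreated, 5.17-fold higher (log2 change 2.37, SE 0.37, adjusted p = 0.000445). For lymphoma 403 these probe sets gave changes of 0.80 and 0.60, so its sign differed between probe sets of C3ar1. The changes of the 3 probe sets followed each other with r between 0.933 and 0.976 over the 12 lymphomas. Leaving out each lymphoma in turn gave changes between 1.87 and 2.53 over the 3 probe sets, all called.

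C5ar1, the receptor of C5a, was called on 1 of its 2 probe sets. On probe set 1439902_at the lowest, median and highest levels were 3.60, 4.45 and 7.29 with ADR and 3.10, 3.61 and 5.66 untreated. The mean was 4.61 ± 1.06 with ADR and 3.96 ± 0.84 untreated (SD, n = 12), a change of 0.65 (SE 0.14, adjusted p = 0.00470), higher in 11 of 12 lymphomas. The untreated mean lies near the floor, with 6 arrays with ADR and 2 untreated arrays above 4.47. On 1422190_at the mean was 5.26 ± 0.84 with ADR and 4.90 ± 0.49 untreated, and the change of 0.36 (SE 0.16) was not called (adjusted p = 0.126; unadjusted p = 0.0418). Changes on the 2 probe sets followed each other with r = 0.766. Lymphoma 403, with C3ar1 changes of -0.39, 0.80 and 0.60, had the largest C5ar1 change on both, 1.89 (7.65 with ADR, 5.77 untreated) and 1.63 (7.29 with ADR, 5.66 untreated).

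The array files of treated samples carry either "sen" (5 lymphomas) or "DOX" (7 lymphomas) in their names, and the labels do not say whether this marks a batch. C3ar1 changed by 1.81 in the sen lymphomas and 2.24 in the DOX lymphomas on 1419482_at, and C5ar1 by 0.58 and 0.70 on 1439902_at. C1qb changed by 1.80 in the sen lymphomas and 0.34 in the DOX lymphomas, and C1qc by 1.45 and 0.18. The difference of the ADR change between the naming sets was tested as an interaction in limma: 0 of 34945 probe sets passed after adjustment (2467 had an unadjusted p under 0.05), members had adjusted p between 0.817 and 0.987, and 0 members had an unadjusted p under 0.05. Lymphoma 2581 carried the sen averages: without it, a choice made after seeing the data, C1qb changed by 0.68 and C1qc by 0.42. The DOX averages of C1qb and C1qc were -0.44 and -0.35 without lymphoma 3802, and 0.86 and 0.47 without lymphoma 7050. In the 5 sen lymphomas alone 0 member probe sets were called, beside 3.86% of all probe sets called in either direction. In the 7 DOX lymphomas 4 were called higher, beside 7.30% of all probe sets called higher.

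Macrophage and fibroblast genes were set beside the complement genes because complement transcripts may come from either cell type. Of 26 macrophage markers 19 were higher with ADR and 0 lower, with a median change of 1.51. Their mean lay between 5.89 and 9.12 with ADR and between 4.81 and 8.10 untreated, and was higher with ADR in 12 of 12 lymphomas. The largest called changes were those of Clec4d, a myeloid C-type lectin receptor (2.99, adjusted p = 1.22e-05), Ms4a7, a macrophage membrane protein (2.89, adjusted p = 3.73e-05), and Adgre1, an adhesion receptor that serves as a macrophage surface marker (2.19, adjusted p = 0.00016). Of the 26 markers 4 lay near the floor in both groups: Mrc1, Cd163, Mertk and Timd4. Of 29 measured fibroblast markers 25 were higher and 0 lower, with a median change of 2.02. Their mean lay between 4.49 and 8.84 with ADR and between 4.17 and 4.98 untreated, and was higher with ADR in 11 of 12. Of the 29 markers 4 lay near the floor in both groups: Lum, Pdgfrb, Twist1 and Cdh11. All of these except Pdgfrb are among the 25 called. Cald1, an actin-binding protein (4.09, adjusted p = 0.000167), Fn1, fibronectin (3.47, adjusted p = 0.000971), and Lox, a collagen cross-linking enzyme (3.40, adjusted p = 0.000779), had the largest called changes.

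Markers of other cell types were counted in the same way. Of 12 neutrophil markers 4 were higher with ADR, with a mean of 4.41 to 6.51 with ADR and 4.07 to 5.46 untreated, and 6 of the 12 lay near the floor in both groups. Of 8 dendritic cell markers 0 were higher and 2 lower, and of 11 T and NK cell markers 1 was higher and 1 lower, with 7 near the floor. The part of these cell types in the complement changes was not tested beyond the relations and covariate fits given here.

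The change of C3ar1 followed that of the macrophage mean. Over the 12 lymphomas Pearson's r was 0.913 (permutation p = 0.00013, adjusted p = 0.00253 over 39 relations) and Spearman's rho 0.923 (permutation p = 8e-05). Without lymphomas 2581 and 3769, farthest from the median macrophage change, r was 0.912 (permutation p = 0.00078). Within the 7 DOX lymphomas it was 0.973 (exact permutation p = 0.000397). No correlation was computed over the 5 sen lymphomas, in which C3ar1 changes of -0.39, 0.87, 1.06, 3.39 and 4.14 stood beside macrophage changes of 0.70, 1.08, 0.88, 1.56 and 2.26 (lymphomas 403, 1570, 5560, 1467 and 2581). With the fibroblast change held constant the partial correlation was 0.941. The untreated arrays showed a relation of the same sign: over the 12 untreated arrays the C3ar1 level followed the macrophage mean with r = 0.970 and rho = 0.986 (adjusted p = 0.00039). Both had a permutation p of 1e-05, which is the lower bound for 100000 resamples. The r was 0.930 when lymphomas 1467 and 1570 were left out. Member and marker values were read on the same arrays.

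With the fibroblast mean, the C3ar1 change had r = -0.18 over the 12 lymphomas (adjusted permutation p = 0.85). The sign of that relation turned without lymphomas 403 and 1467, where r was 0.40, and within the DOX lymphomas it was 0.86 (exact permutation p = 0.0175, adjusted p = 0.227). With the macrophage change held constant the partial correlation was -0.58 (permutation p = 0.0481, adjusted p = 0.2 over 12 relations). Its rank form, Spearman's rho, was -0.69 (permutation p = 0.0167, adjusted p = 0.1), so neither passed. Lymphomas 403 and 5560, with the largest fibroblast changes (4.35 and 4.08), had C3ar1 changes of -0.39 and 1.06. Lymphoma 1467, in which the fibroblast mean did not rise (change -0.06), had a C3ar1 change of 3.39 and a macrophage change of 1.56.

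Whether the C1q changes relate to either marker mean could not be tested over the 12 lymphomas, because lymphomas 2581 and 3802 stand apart for C1q and C1qb lay between 3.36 and 4.47 in both groups in 8 of the other 10. Values over those 10, a choice made after seeing the data, say little for that reason. With the macrophage change r was -0.16 for C1qa, -0.28 for C1qb and -0.36 for C1qc, and with the fibroblast change 0.22, 0.12 and 0.44 in the same order (adjusted permutation p between 0.611 and 0.859). The macrophage mean of lymphoma 3769 was the highest with ADR, 9.12 against 6.60 untreated, and its C1qb had 3.49 with ADR and 4.05 untreated. In lymphoma 3802, with the second-highest C1qb, the macrophage mean was 7.95 with ADR and 6.71 untreated. Over the same 10 lymphomas the changes of C1qb and C1qc had r = 0.887 (permutation p = 0.00465, adjusted p = 0.0604), those of C1qa and C1qb 0.835 (adjusted p = 0.128), and those of C1qa and C1qc 0.789 (adjusted p = 0.132), by permutation and none past the test. Without lymphomas 5560 and 7050 these values were 0.208 for C1qb and C1qc, -0.29 for C1qa and C1qb and -0.43 for C1qa and C1qc, so they rest on those lymphomas. None of the 15 relations between members passed the adjustment.

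For Cfb, r with the macrophage change was 0.576 (rho 0.357, permutation p = 0.0498, adjusted p = 0.278), and it was -0.24 without lymphomas 2581 and 3769, on which it rests. With the fibroblast change r was 0.161. Relations of C5ar1 were computed on 1422190_at, which was not called, and not on the called 1439902_at. C5ar1 had r = -0.36 with the macrophage change and 0.11 with the fibroblast change, neither past the test. Its untreated level had r = 0.711 with the untreated macrophage mean (permutation p = 0.0104, adjusted p = 0.101), and 0.832 without lymphomas 1467 and 1570 (adjusted p = 0.033), where Spearman's rho was 0.782 and did not pass (adjusted p = 0.142).

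**Figure D2:**
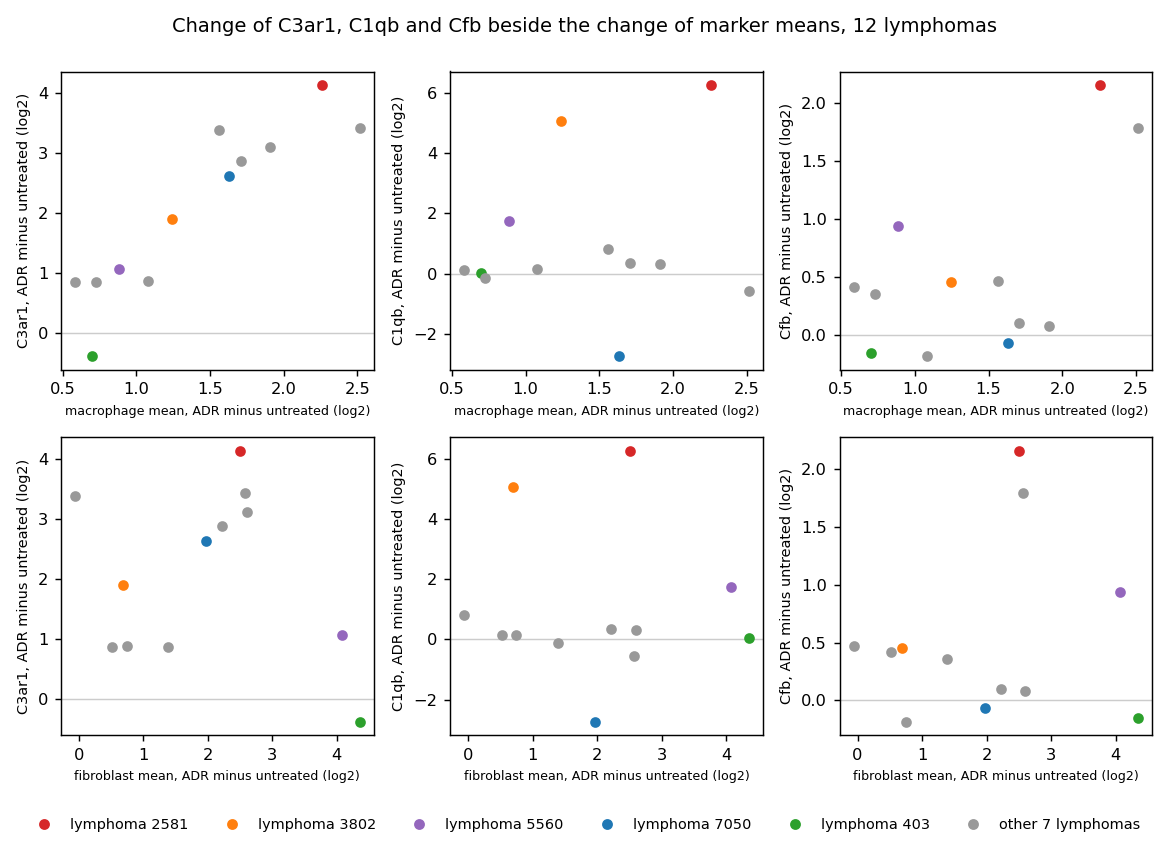
Change (ADR minus untreated, log2) of C3ar1, C1qb and Cfb on the vertical axes against the change of the macrophage marker mean (top) and the fibroblast marker mean (bottom), 1 point per lymphoma. C3ar1 rises along the macrophage axis (r = 0.913), while the C1qb points of lymphomas 2581, 3802 and 7050 lie away from the others.

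Marker means were also put into the fit as covariates. With the fibroblast mean as a covariate C3ar1 had changes of 2.41 (adjusted p = 0.0534), 2.48 (adjusted p = 0.0454) and 2.90 (adjusted p = 0.0234) on its 3 probe sets, no smaller than without it, and 1555 of 34945 probe sets were called (4.45%). C5ar1 on 1439902_at had a change of 0.65, as without the covariate, with adjusted p = 0.191. With the macrophage mean as a covariate the C3ar1 changes were -0.75 (adjusted p = 0.619), -0.36 (adjusted p = 0.870) and -0.17 (adjusted p = 0.963), so the positive change was gone on all 3 probe sets. In that fit 0 of 34945 probe sets were called by limma (3026 had an unadjusted p under 0.05), and the macrophage mean itself was higher with ADR in every lymphoma. The C5ar1 changes were 0.83 and 0.98 there, larger than without the covariate and not called. Cfb had -0.42 (SE 0.42) and C1qa -0.40 (SE 0.61) in the same fit, neither called.

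**Figure D3:**
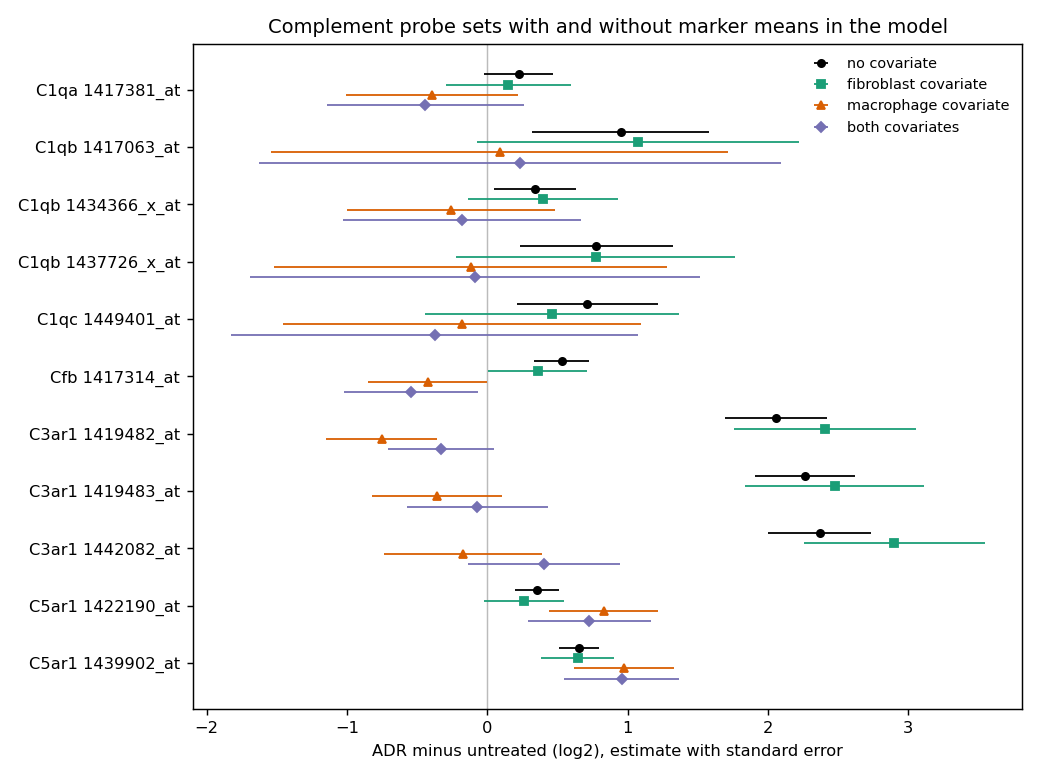
Estimated change (ADR minus untreated, log2, horizontal axis) with its standard error for the 11 member probe sets, without a covariate and with the fibroblast mean, the macrophage mean or both in the model. The C3ar1 estimates lie between 2.06 and 2.90 without a covariate and with the fibroblast mean, and between -0.75 and 0.40 in the fits that hold the macrophage mean.

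The rest of the pathway was followed on a list of 49 other complement genes, of which 39 were measured. Of these 12 were higher with ADR, 2 lower and 25 not called, with a median change of 0.047, beside 13.4% of all genes called higher, 12.5% called lower and a median change of -0.0060. In both groups 18 of the 39 lay near the floor.

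In the classical and lectin routes 4 of 12 measured genes were higher and 0 lower. C1ra, the protease carried by C1q, averaged 5.92 ± 1.05 with ADR and 4.67 ± 0.42 untreated (SD, n = 12), 2.37-fold higher in the mean (adjusted p = 0.0060), with a positive change in 12 of 12. C1s1, the second protease of the complex, had 5.21 ± 1.65 with ADR and 3.46 ± 0.24 untreated (log2 change 1.75, adjusted p = 0.0112). Masp1, a protease of the lectin route, had 6.14 with ADR and 5.06 untreated (log2 change 1.08, adjusted p = 0.00495), with 2 of its 5 probe sets higher. Colec12, a scavenger receptor with a collectin domain, was near the floor with means of 3.79 with ADR and 2.64 untreated (log2 change 1.15, adjusted p = 0.0259). With the fibroblast mean as a covariate C1ra had a change of -0.11, C1s1 of -0.62, Masp1 of -0.15 and Colec12 of -0.56, and none was called. With the macrophage mean the changes were 1.496, 1.649, 0.993 and 1.817 in the same order, in a fit that called 0 probe sets.

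Of 7 measured genes of the alternative and terminal routes only Cfp, the gene of properdin, was called. It averaged 10.71 ± 0.80 with ADR and 8.73 ± 0.78 untreated, 3.97-fold higher (log2 change 1.99, SE 0.26, adjusted p = 0.000118), with a positive change in 12 of 12 pairs and a call on both of its probe sets. With the fibroblast mean as a covariate its change was 1.97 (adjusted p = 0.0311), and with the macrophage mean 0.075 (adjusted p = 0.972). Hc, which encodes C5, and the terminal components C8a, C8b and C9 lay near the floor in both groups.

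Among 11 regulators 3 were higher and 1 lower. Cd59a, an inhibitor of the membrane attack complex, changed by 0.50 (5.19 with ADR, 4.69 untreated; adjusted p = 0.0328), with 1 of its 2 probe sets called. Clu, clusterin, which binds terminal complement complexes, changed by 0.43 (6.32 with ADR, 5.89 untreated; adjusted p = 0.00868), with 2 of 4 probe sets called. Cr1l, the rodent membrane regulator Crry, changed by 0.40 (8.84 with ADR, 8.45 untreated; adjusted p = 0.0190), with 1 of 3 probe sets called. C4bp, the gene of C4b-binding protein, averaged 4.93 ± 1.64 with ADR and 6.27 ± 2.08 untreated, a change of -1.34 (adjusted p = 0.035), and was lower in 10 of 12 lymphomas. Its median with ADR was 4.16, near the floor, against 6.23 untreated. With the fibroblast mean as a covariate Cr1l stayed called (0.71, adjusted p = 0.0391), Clu had 0.13, Cd59a -0.0018 and C4bp 0.25.

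Of 9 other receptors and binding proteins 4 were higher and 1 lower. Itgam and Itgb2, the chains of complement receptor 3, changed by 1.34 (8.33 with ADR, 6.99 untreated; adjusted p = 0.00806) and 1.01 (10.82 with ADR, 9.80 untreated; adjusted p = 0.00457). Lrp1, an endocytic receptor that takes up many ligands, changed by 1.52 (6.84 with ADR, 5.32 untreated; adjusted p = 0.000395). Calr, calreticulin, which can bind C1q, changed by 0.51 (11.88 with ADR, 11.37 untreated; adjusted p = 0.00387). C1qbp, a mitochondrial protein first isolated as a C1q binder, was lower in 12 of 12 lymphomas (12.39 with ADR, 12.81 untreated; change -0.41, adjusted p = 0.00445). Cr2, Itgax and Vsig4 lay near the floor in both groups. With the macrophage mean as a covariate Itgam had a change of -0.78 and Itgb2 of -0.68, and with the fibroblast mean 1.51 and 0.79, none called.

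**Figure D4:**
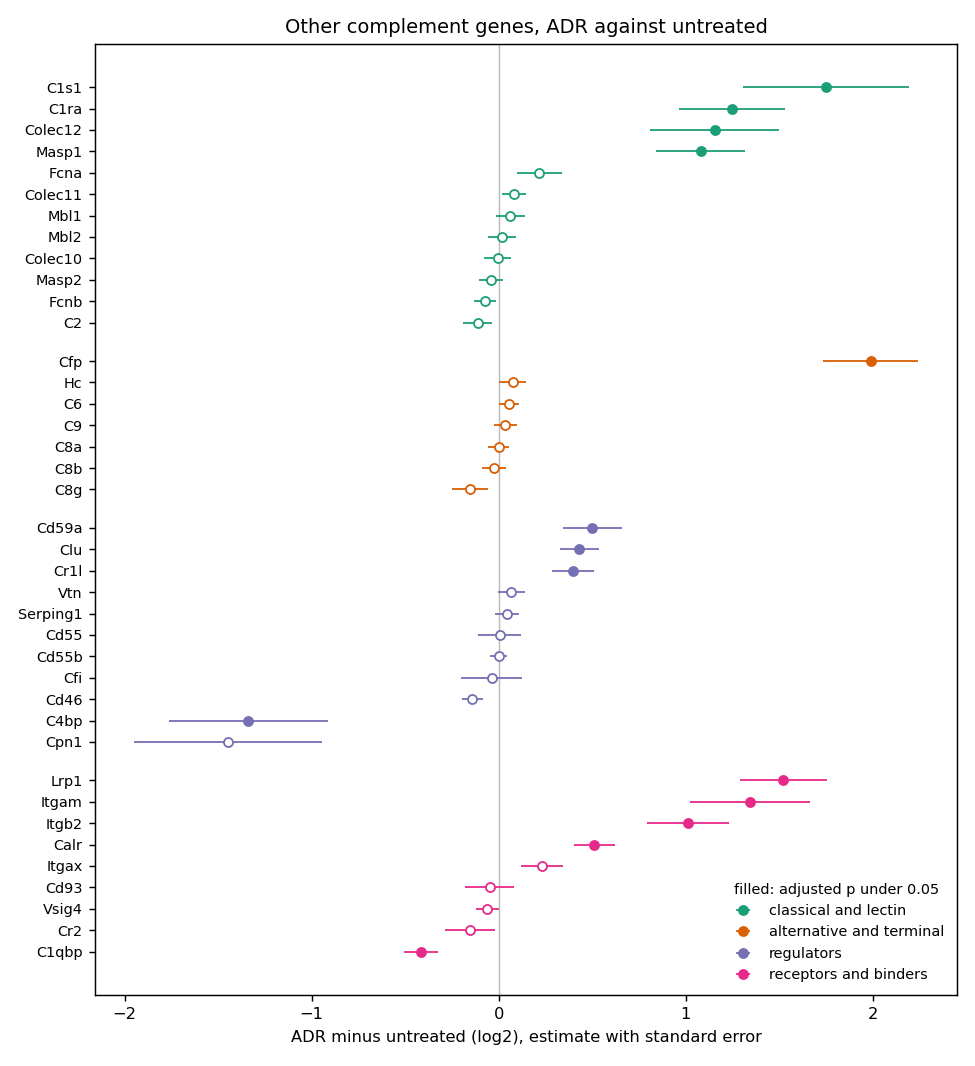
Change (ADR minus untreated, log2, horizontal axis) with its standard error for 39 other complement genes in 4 colour-coded classes; filled points passed the test and open points did not. Cfp (1.99) and C1s1 (1.75) lie farthest to the right, and C4bp (-1.34) is 1 of the 2 called genes on the left.

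The genes most like each member were sought among 10110 genes with a mean of at least 5, by Pearson's r over 24 arrays after the mean of each treatment group was subtracted. The 3 nearest to C3ar1 were Clec4d (r = 0.944), Fth1, the ferritin heavy chain (0.940), and Lcp2, an adaptor of immune receptor signalling (0.936). H2-T18, a non-classical class I gene, came nearest to C1qa, C1qb and C1qc alike (0.721, 0.750 and 0.762). Next to C1qa were Lrr1 (0.684) and Hrk (0.681), next to C1qb were Marco, a scavenger receptor of macrophages (0.651), and Sfrp4 (0.603), and next to C1qc were Sebox (0.639) and Got2, the mitochondrial aspartate aminotransferase (0.632). Spic, a transcription factor of the Ets family known from red pulp macrophages, came nearest to Cfb (0.856), followed by Slfn5 (0.793) and Cdk20 (0.792). C5ar1 had Pofut2 (0.753), Unc5b (0.745) and Zcchc4 (0.740) nearest. Arrays of 1 lymphoma enter as a pair in these correlations, which are given as a description. Lymphomas 2581 and 3802, which stand apart for C1q, were included. Whether the genes nearest to C1qa, C1qb and C1qc rest on those lymphomas was not tested. Cfb was above the floor with ADR in 3 lymphomas, and whether its nearest genes rest on them was not tested either.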

How the data were processed

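Total RNA of 24 cultures (12 lymphomas, each with ADR and untreated) was hybridised to Affymetrix arrays. The authors deposited 1 log2 value per probe set and array; RMA and Partek are named per the submitters' processing notes, with versions and settings not given in the sources used here, and the range of the deposited values (1.97 to 14.36) gave the log2 scale. Scanner files were not used here. Of 45101 probe sets, 34945 had 1 gene symbol in the platform annotation, 932 several, 9160 none and 64 were controls; 34741 matched RefSeq by Entrez ID and 0 symbols were updated. Each of 18193 genes was represented by the brightest of its single-gene probe sets, judged on the mean of 24 arrays.

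Groups and lymphoma numbers came from the titles, and the series' design text states matched pairs. Within pairs the deviations from the group means correlated with r between 0.257 and 0.589, over 0.1 in 12 of 12, and the own pair correlated best in 10 of 12. The tables held 0 pairs of identical arrays.

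ADR minus untreated was fitted with limma 3.58.1 in R 4.3.3 (lmFit, eBayes, lymphoma as a block), with Benjamini-Hochberg adjustment over 34945 probe sets. Relations across lymphomas used two-sided permutation tests (100000 resamples, or all orderings under 10 lymphomas), adjusted over 39, with scipy 1.17.1, numpy 2.4.6 and pandas 2.3.3 under Python 3.11.15, and matplotlib 3.10.9 drew the figures. On simulated data with 34945 probe sets and 200 known changes the paired fit recovered 56% of changes of 0.5, 86% of 1 and 100% of 2 on the log2 scale, with 5.08% of calls false. The simulated noise was normal and independent between probe sets, with equal spread in both groups and a fixed share of it common to both arrays of a lymphoma. In the data 8322 probe sets were called, against 200 changed in the simulation. The adjustment depends on that share, so recovery in the data may differ. C1qb on 1417063_at had an SD of 2.35 with ADR and 1.06 untreated, so these rates do not describe such probe sets. Precision is limited by how many lymphomas were profiled. Alternatives covered the pairing, array scaling, dim probe sets, 1 probe set per gene, the variance prior, marker covariates, naming sets and leaving out lymphomas.

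The members, lists and tests were chosen with earlier results of these data known. Named are all members, the 3 genes most like each, the called genes of each list of other complement genes (up to 5 in each direction), and the 3 called macrophage and fibroblast markers with the largest change. Other genes (those listed as near the floor, and Hc, C8a, C8b and C9) were named after their values were seen.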

Additional observations from a re-analysis of the deposited data

How the results depend on the processing

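Under median centring, quantile normalization and another variance prior the 4 member calls stayed at 4, and leaving out each lymphoma in turn also gave 4 throughout. Member probe sets called numbered 1 with 1 probe set per gene, 2 with the fibroblast covariate, 0 with the macrophage covariate, 0 with both and 0 in the sen lymphomas alone. Without the replicate block (no pairing in the model) 3 were called, C3ar1 with adjusted p = 0.044, 0.041 and 0.049, while C5ar1 on 1439902_at lost its call (0.274). Over all probe sets, 8322 were called, against 5192 with no replicate block, 4829 with 1 probe set per gene, 1555 with the fibroblast covariate, 0 with the macrophage covariate, 0 with both, 1350 in the sen and 5176 in the DOX lymphomas. Leaving out each lymphoma gave 6740 to 8920. Of the other complement genes 14 were called, against 9 with no replicate block, 2 with the fibroblast covariate, 0 with the macrophage covariate, 0 with both, 0 in the sen and 9 in the DOX lymphomas, and 12 to 16 on leaving out each lymphoma. Relations of untreated levels numbered 1 past the test and 2 without the farthest lymphomas. The dim filter (mean of at least 5) left 4 member probe sets, 3 of C3ar1 and 1422190_at, of which 3 were called. Of all 17172 probe sets left by the filter 7231 were called in either direction, 3278 of them higher.

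Signs turned as follows, with the cause not tested. With the macrophage covariate C3ar1 had -0.75, -0.36 and -0.17, C1qa -0.40, Cfb -0.42, C1qc -0.18, C1qb -0.26 and -0.12 on 1434366_x_at and 1437726_x_at, Itgam -0.78 and Itgb2 -0.68. None of these was called. The SE was 0.40, 0.46 and 0.56 for C3ar1, 0.61 for C1qa, 0.42 for Cfb and 1.28 for C1qc. For the C1qb probe sets it was 0.74 and 1.40. With both covariates the values were C3ar1 -0.33 and -0.073, C1qa -0.44, Cfb -0.54, C1qc -0.38, C1qb -0.18 and -0.089, Itgam -0.56, Itgb2 -0.82, C1s1 -0.49, Masp1 -0.12, Lrp1 -0.23, Cd59a -0.39, C1qbp 0.086 and C4bp 0.30. With the fibroblast covariate they were C1ra -0.11, C1s1 -0.62, Masp1 -0.15, Colec12 -0.56, Cd59a -0.0018 and C4bp 0.25. Without lymphomas 2581 and 3802 C1qa had -0.13, C1qc -0.040 and C1qb -0.027 on 1434366_x_at, C1qa had -0.042 in the DOX lymphomas, and leaving out each lymphoma gave C1qa -0.0067 to 0.32. Among relations of changes, the sign turned without the farthest lymphomas for Cfb with macrophages (-0.24), C3ar1 with fibroblasts (0.40) and C5ar1 with fibroblasts (-0.60). In the DOX lymphomas (6 for C1q, without 3802, otherwise 7) it turned for C1qa with macrophages (0.061), C1qa with fibroblasts (-0.094), C1qb with fibroblasts (-0.087), C3ar1 with fibroblasts (0.86) and C5ar1 with fibroblasts (-0.51). Untreated C1q relations left out lymphoma 7050, whose C1q levels stand apart, a choice made after seeing the data. Among untreated levels the sign turned without the farthest lymphomas for C1qa with macrophages (-0.22), C1qb, C1qc and Cfb with fibroblasts (0.41, 0.30 and 0.34), and in the DOX lymphomas for C5ar1 with fibroblasts (-0.093). Signal near the floor limits C1qa, C1qc, most C1qb arrays, Cfb and C5ar1.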
